A study of Ovis aries with 6 samples.

Results

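Immediate early genes and stress transcription factors were described in sheep (Ovis aries) ovary. Members were chosen by symbol alone: subunits of the AP-1 complex (FOS and JUN families), EGR zinc fingers, ATF and CEBP factors, MYC, KLF factors, DUSP phosphatases, IER, BTG and GADD45 genes and the ZFP36 family. Of the 14480 rows of the gene table, 44 carried such a symbol, each on a single row. A further 13 symbols of these families, among them JUNB, JUND, EGR3, CEBPA, CEBPB, CEBPD, IER2 and ZFP36L1, were carried by no row used here. A member entered the test if 3 or more libraries held it at 0.5 FPKM or above, which left 38 of the 44.

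Ovary was taken during estrus from Hu sheep, a breed known for large litters, and from Mongolian sheep, which usually bear a single lamb, and polyadenylated RNA was sequenced in 3 libraries per breed. No treatment, genotype or age is given, and the series title names exosomes where every sample label names ovary. The comparison asks which transcripts differ between the breeds. Values are FPKM, which corrects fragments for the length of the transcript and the size of the library, so levels can be set side by side between genes; read counts were not used, and depth is unknown. Libraries are called by breed and number, and values are given in the order 1, 2, 3. The p-values set a breed difference against the spread between these libraries, which limma estimates partly from all genes tested. The sample titles number the sheep 1 to 3 within each breed; whether a library holds RNA of 1 ewe or of several is not given in the sources used here.

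Immediate early genes are transcribed within minutes of a signal, without new protein synthesis, when MAP kinases act on factors such as SRF, ELK1 and CREB1 that already sit at their promoters. Their products are short-lived: AP-1 and EGR proteins switch on a later wave of genes, while DUSP phosphatases switch the MAP kinases off and ZFP36 and BTG proteins speed the decay of the same messages. In the follicle, the preovulatory surge of luteinizing hormone is a known inducer of EGR1 and of AP-1 genes, and cutting, warming or delay of a tissue also induces many of them. ATF and GADD45 genes respond to amino acid shortage, unfolded protein and DNA damage.

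Across the set no gene passed the test between breeds, and the Hu libraries held both the highest and the lowest values of many genes. Of the 38 members tested, 0 passed the limma test at an adjusted p under 0.05, as did 0% of all 9971 genes tested; the lowest adjusted p of a member was 0.998. At an unadjusted p under 0.05 there were 2 members, DUSP4 and GADD45A, both higher in Hu, or 5.26% of the members against 3.73% of all genes tested. DUSP4 entered the test only through its Hu libraries. A positive log2 difference (Hu minus Mongolian, on log2(FPKM + 1)) was found for 13 members and a negative one for 25, and 34.2% positive compares with 32.3% of all genes. The median difference was -0.29 for members and -0.28 for all genes. Quantile normalization moved the median of all genes to 0.019 and a common sum moved it to -0.085. After quantile normalization 19 of the 38 were positive against 51.3% of all genes, with libraries brought to a common sum 18 against 44.5%, without Hu 1 17 against 50.8%, and without Hu 3 only 5 against 18.1%.

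**Figure D1:**
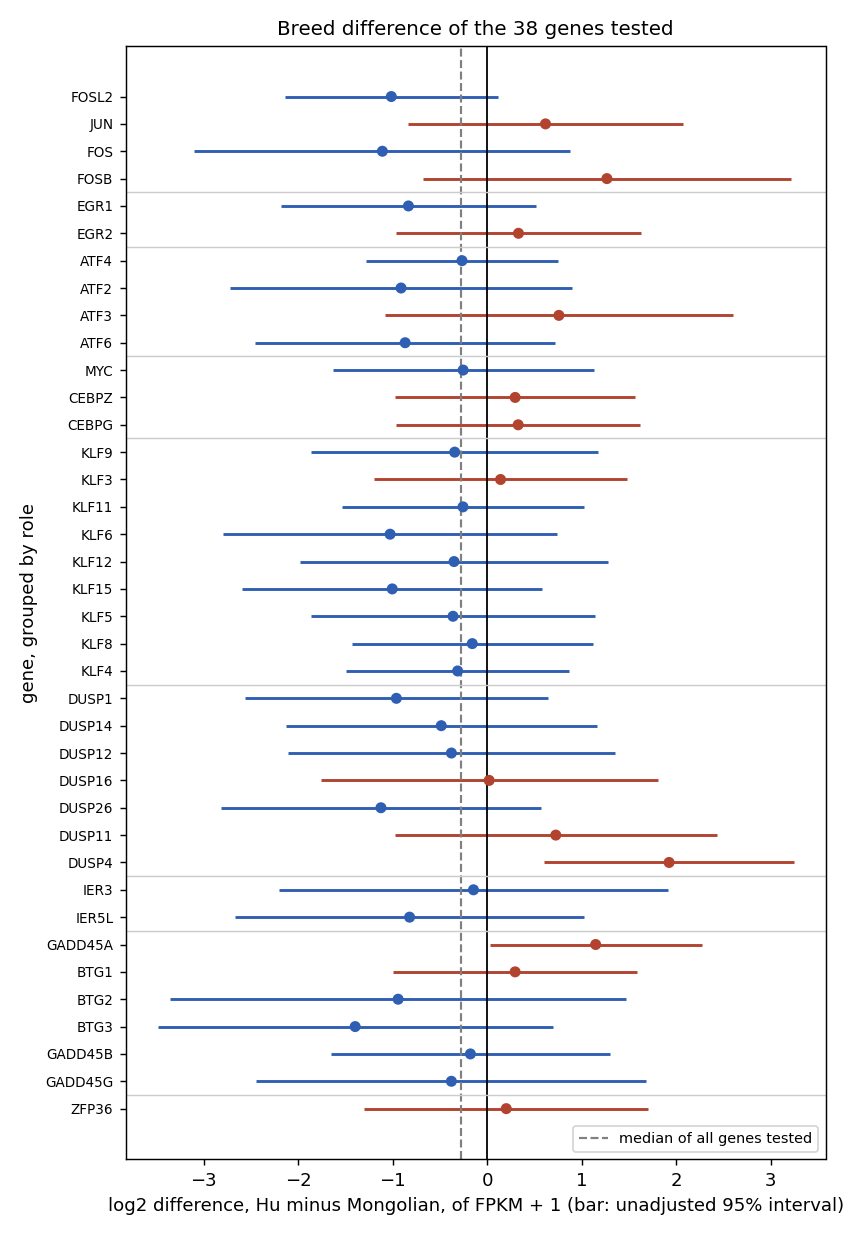
Log2 difference in FPKM + 1 between Hu and Mongolian ovaries for the 38 genes tested, grouped by role, with unadjusted 95% intervals (red, positive; blue, negative; dashed, median of all genes tested). Only the intervals of DUSP4 and GADD45A lie wholly on 1 side of 0, and the size shown for DUSP4 depends on the pseudocount because all its Mongolian values are 0.

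Libraries differed in how much of the set they listed. Members above 0 numbered 26, 25 and 44 of 44 in Hu and 35, 39 and 37 in Mongolian. Of all 14480 rows, 44.9%, 55.0% and 92.1% were above 0 in Hu, and 72.8%, 79.2% and 73.2% in Mongolian. A pattern of 0 in Hu 1 and Hu 2 with a value above 0 in Hu 3 was seen in 13 members, or 29.5% of the set, and in 30.7% of all rows. Of the members tested, 19 of 38 were above 0 in every library, as were 49.8% of all genes tested. The pattern with 0 in Hu 1 and Hu 2 took in BTG2, BTG3, ATF6, KLF4, KLF5, KLF15 and DUSP6. Because a 0 here can be a failed estimate, such genes are described only as listed at 0.

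Marker genes of ovarian cells were read beside these values. Stroma markers, 6 of 6 listed and above 0 in every library, summed to between 876 and 1138 FPKM. Smooth muscle markers, also 6 of 6 and never at 0, summed to 579, 693 and 1377 FPKM in Hu and to 911, 713 and 883 in Mongolian, highest in Hu 3. Granulosa markers (7 of 10 listed) summed to 197, 37.3 and 94.2 in Hu ovaries against 69.4, 58.8 and 107 in Mongolian ovaries, and theca and luteal markers (6 of 6) to 47.8, 16.7 and 87.9 and to 24.8, 19.8 and 105. Endothelial markers (6 of 7) summed to 14.3, 5.91 and 20.8 in Hu ovaries against 5.54, 10.1 and 5.98 in Mongolian ovaries. Myeloid markers (8 of 9) summed to 5.33, 22.1 and 25.7 and to 8.28, 48.4 and 4.59, lymphocyte markers (3 of 8) reached 4.38 at most with CD3E at 0 in all libraries but Mongolian 1, and the oocyte markers listed, ZP3 and GDF9, reached 0.888 in sum at most. Surface and tube epithelium markers (6 of 8 listed) summed to 1.92, 0.34 and 11.9 in Hu ovaries against 4.38, 4.66 and 32.8 in Mongolian ovaries, with MSLN and EPCAM above 0 in Mongolian 3 alone. The 1 red blood cell marker listed of 6, AHSP, stood at 5.94 in Mongolian 3 and at 0 elsewhere. The part of cell makeup in the results was not tested, and in bulk tissue fewer cells of a type and less RNA per cell cannot be told apart.

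**Figure D2:**
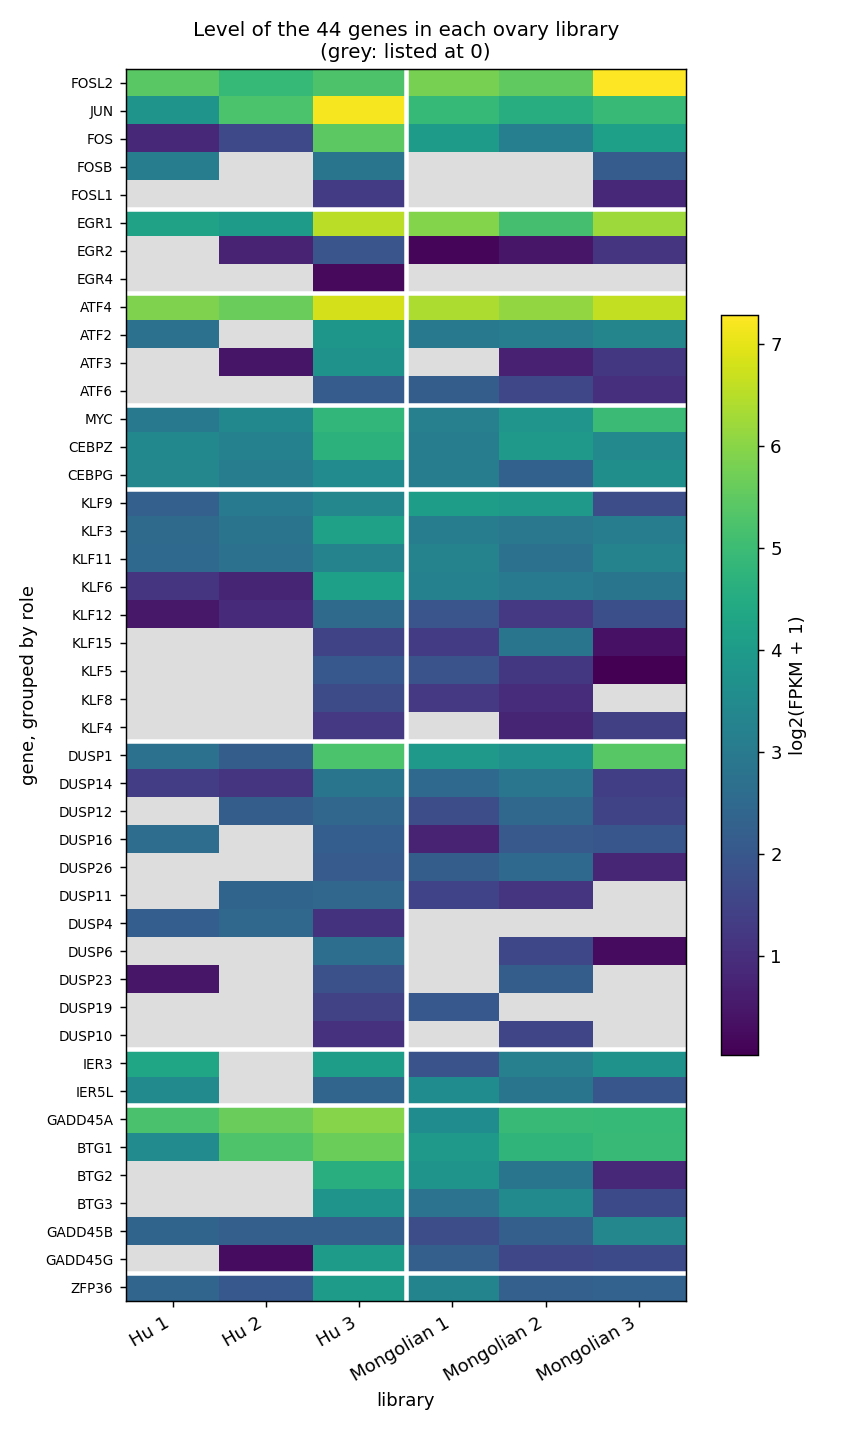
Level of each of the 44 genes (rows, grouped by role) in each of the 6 libraries (columns) as log2(FPKM + 1), with values of 0 in grey. Grey cells gather in Hu 1 and Hu 2, where 18 and 19 genes are listed at 0, and none is in Hu 3.

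AP-1 binds DNA as a pair of a JUN protein with a FOS protein or with another JUN. FOSL2, which encodes the slowly induced partner Fra-2, stood at 42.2, 28.4 and 37.1 FPKM in Hu ovaries against 54.8, 44.8 and 155 in Mongolian ovaries. As deposited, all 3 Hu values lay below all 3 Mongolian values. Hu 1 and Mongolian 2 lay close together, and Mongolian 3 stood far above the rest. Breed means were 35.9 ± 6.99 for Hu against 84.9 ± 61.1 for Mongolian (SD, n = 3 each). The log2 difference was -1.01 ± 0.53 (SE), and the limma adjusted p was 0.998. Without Mongolian 3 the difference was -0.47. With all libraries it was -0.85 when they were scaled by median ratios, -0.70 with a common sum and -1.14 after quantile normalization. The lack of overlap was read on the values as deposited alone, and whether it outlasts scaling was not tested. Mongolian 3 also stood apart in epithelial markers and in AHSP, and it held the highest value of 26.6% of all genes tested. The part of cell makeup in its FOSL2 value was not tested. FOSL2 was the single tested member with every Hu value below every Mongolian value, a pattern held by 6.05% of all genes tested.

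JUN stood at 12.9, 36.3 and 146 FPKM in Hu ovaries against 28.8, 22.6 and 29.1 in Mongolian ovaries. The Mongolian libraries were close to each other, whereas Hu 1 lay below them and Hu 2 and Hu 3 above. The log2 difference was 0.62 ± 0.68 (SE) over all libraries (limma adjusted p = 0.998) and -0.28 without Hu 3.

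FOS, the archetype of the class, stood at 0.802, 2.11 and 43.2 FPKM in Hu ovaries against 15.1, 7.88 and 16.4 in Mongolian ovaries. The Hu libraries bracketed the Mongolian ones from both sides: Hu 1 and Hu 2 lay below all of them and Hu 3 above. FOS is given beyond the naming rule, having been chosen after its values were seen; its log2 difference was -1.11 ± 0.93 (SE) (limma adjusted p = 0.998), and the 95% interval ran from -3.10 to 0.88. The difference was -0.21 without Hu 1, -0.60 without Hu 2 and -2.52 without Hu 3. FOSB was listed at 7.54, 0 and 6.18 in Hu ovaries against 0, 0 and 3.41 in Mongolian ovaries, a log2 difference of 1.27 ± 0.92 (SE) that was 0.71 without Hu 1, 0.83 without Hu 3 and 2.26 without Hu 2. FOSL1, the gene of Fra-1, was listed only in Hu 3 (1.498) and Mongolian 3 (0.821). FOSB and FOSL1 thus shared 3 libraries in which both were at 0, Hu 2, Mongolian 1 and Mongolian 2.

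Shares within a library do not depend on how libraries are scaled to each other. FOSL2 held 66.5%, 42.5% and 15.8% of the summed FPKM of the 5 listed AP-1 genes in Hu, and 55.5%, 59.5% and 75.7% in Mongolian. JUN held 20.3%, 54.4% and 62.4% in Hu and 29.2%, 30.01% and 14.2% in Mongolian. Of the 5 listed genes, FOSL2 was thus the most abundant in Hu 1 and in every Mongolian library, and JUN in Hu 2 and Hu 3. JUNB and JUND had no row, so their share is unknown. FOS held 1.26%, 3.15% and 18.5% in Hu and 15.3%, 10.5% and 8.02% in Mongolian, so that the breeds overlapped for each of these genes.

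**Figure D3:**
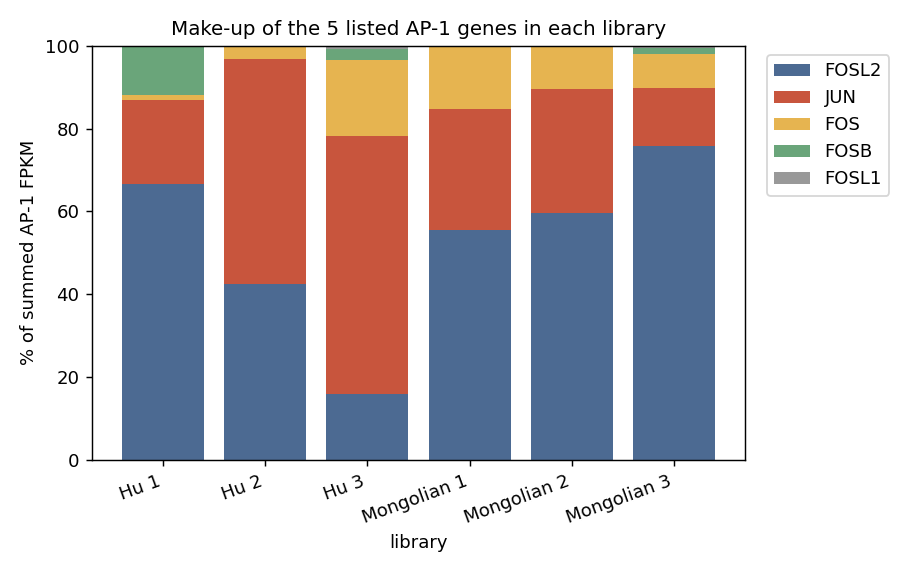
Share of the summed FPKM of the 5 listed AP-1 genes held by each gene, per library. FOSL2 takes the largest share in Hu 1 and the 3 Mongolian libraries (55.5% to 75.7%), and JUN in Hu 2 and Hu 3 (54.4% and 62.4%).

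EGR genes encode zinc finger activators that recognise GC-rich sites. EGR1 stood at 17.3, 15.5 and 92.2 FPKM in Hu ovaries against 59.9, 34.3 and 73.4 in Mongolian ovaries. As for FOS, Hu 1 and Hu 2 were the lowest of the 6 libraries as deposited and Hu 3 the highest. After quantile normalization Hu 3 was still the highest for FOS but not for EGR1. Breed means were 41.7 ± 43.7 for Hu against 55.9 ± 19.8 for Mongolian (SD, n = 3 each), and the log2 difference was -0.83 ± 0.63 (SE) (limma adjusted p = 0.998). It was -0.47 without Hu 1, -0.39 without Hu 2 and -1.64 without Hu 3. EGR2 stayed at 2.85 FPKM or lower and was at 0 in Hu 1, and EGR4 was listed in Hu 3 alone, at 0.156. EGR1 thus made up 95.8% or more of the summed level of the listed EGR genes in each library, while EGR3 had no row.

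ATF4, whose protein is made in larger amounts when the integrated stress response slows general translation, was the most abundant gene of the set by mean. It stood at 58.2, 48.5 and 112 FPKM in Hu ovaries against 82.8, 68.8 and 97.7 in Mongolian ovaries. As deposited, the Hu values again lay on both sides of the Mongolian ones, but after quantile normalization Hu 3 was not the highest for ATF4. Its log2 difference was -0.27 ± 0.48 (SE) (limma adjusted p = 0.998), and with 1 library left out it lay between -0.62 (without Hu 3) and -0.025 (without Hu 2). ATF2, a target of stress-activated MAP kinases, stood at 5.82, 0 and 13.5 in Hu ovaries against 6.86, 7.36 and 9.03 in Mongolian ovaries. ATF3, an early stress-induced repressor, stood at 0, 0.343 and 12.3 in Hu ovaries against 0, 0.623 and 1.28 in Mongolian ovaries, with the highest value in Hu 3 and a log2 difference of 0.76 ± 0.86 (SE). ATF6, an endoplasmic reticulum sensor that is cut to release a transcription factor, was at 0, 0 and 3.38 in Hu ovaries against 3.46, 1.97 and 1.01 in Mongolian ovaries.

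MYC, a driver of growth and ribosome production, stood at 6.76, 9.78 and 27.5 FPKM in Hu ovaries against 8.20, 13.1 and 30.2 in Mongolian ovaries. The breeds covered nearly the same range, with a log2 difference of -0.25 ± 0.65 (SE) (limma adjusted p = 0.998). CEBPG, a partner of other CEBP proteins, stood at 9.49, 7.42 and 10.5 in Hu ovaries against 7.53, 3.85 and 11.4 in Mongolian ovaries. CEBPZ, which shares the name but works mainly in ribosome assembly, stood at 9.69, 8.37 and 24.8 in Hu ovaries against 7.497, 14.1 and 9.87 in Mongolian ovaries. Both were above 0 in every library and overlapped between breeds.

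KLF factors are zinc finger proteins of GC-rich promoters, and 9 of them were listed and tested, 1 with a positive difference and 8 with a negative one. After quantile normalization these counts were 4 and 5, and without Mongolian 1 also 4 and 5. Positive differences made up 32.3% of all genes tested as deposited, 51.3% after quantile normalization and 33.2% without Mongolian 1. KLF9, a gene induced by glucocorticoid and a partner of the progesterone receptor, stood at 3.80, 7.30 and 9.46 FPKM in Hu ovaries against 15.8, 14.2 and 2.34 in Mongolian ovaries. Mongolian 1 and 2 were the highest and Mongolian 3 the lowest, and the log2 difference was -0.34 ± 0.71 (SE) (limma adjusted p = 0.998). KLF6 stood at 1.18, 0.718 and 16.4 in Hu ovaries against 8.21, 7.29 and 6.22 in Mongolian ovaries, the pattern of FOS and EGR1. KLF11, a gene induced by transforming growth factor beta, and the repressor KLF3 varied less, KLF11 between 4.70 and 8.67 over all 6 libraries and KLF3 between 4.83 and 17.3. KLF15 stood at 0, 0 and 1.88 in Hu ovaries against 1.46, 6.24 and 0.308 in Mongolian ovaries, a log2 difference of -1.005 ± 0.75 (SE) that was -0.33 without Mongolian 2, -1.51 without Hu 3 and -1.57 without Mongolian 3. KLF4, KLF5, KLF8 and KLF12 reached 4.79 FPKM at most, and the first 3 of these were listed at 0 in Hu 1 and Hu 2.

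**Figure D4:**
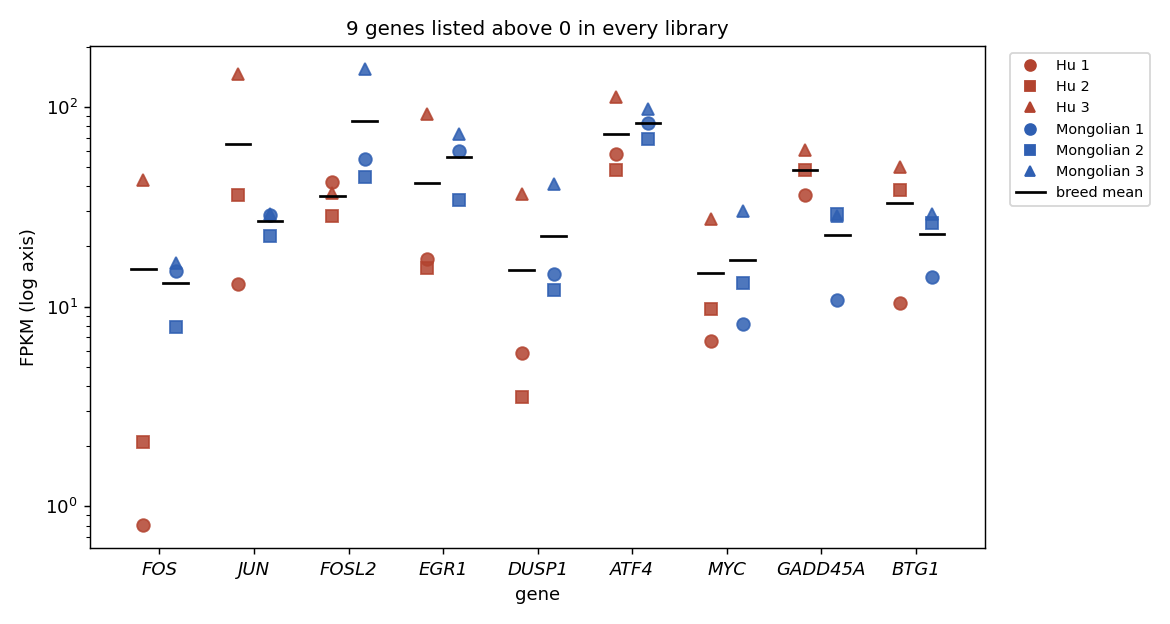
FPKM (log axis) of 9 genes above 0 in every library, by breed (red, Hu; blue, Mongolian; circle, square and triangle are replicates 1, 2 and 3; bar, breed mean). Hu 3 is the highest library for FOS, JUN, EGR1, ATF4, GADD45A and BTG1, and Hu 1 and Hu 2 are the lowest for FOS, EGR1, DUSP1 and ATF4.

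Dual-specificity phosphatases include the MAP kinase phosphatases, the feedback brakes of the pathway that induces the AP-1 and EGR genes; 11 were listed and 7 tested. DUSP1, the nuclear phosphatase that is itself an immediate early gene, stood at 5.83, 3.53 and 36.4 FPKM in Hu ovaries against 14.5, 12.1 and 41.1 in Mongolian ovaries. Hu 1 and Hu 2 were the lowest libraries and Mongolian 3 the highest, followed by Hu 3. Its log2 difference was -0.96 ± 0.75 (SE) (limma adjusted p = 0.998). Leaving out Hu 2 gave -0.35 and leaving out Mongolian 3 gave -0.44, whereas leaving out Hu 3 gave -1.88.

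DUSP4, a nuclear phosphatase of ERK and JNK kinases, was listed at 3.60, 4.54 and 1.14 FPKM in Hu and at 0 in all 3 Mongolian libraries. It had the smallest unadjusted p of the set, 0.00709, and missed the threshold over all genes (limma adjusted p = 0.998). DUSP4 and GADD45A were the members with every Hu value above every Mongolian value, a pattern of 1.88% of all genes tested. DUSP4 met the filter only through the Hu libraries, so its lack of overlap was fixed by the filter. Its small p cannot be read apart from that. Hu 3 was the lowest Hu library for DUSP4, unlike for the 21 members whose highest value lay there. DUSP6, the cytoplasmic phosphatase of ERK, was listed at 5.31 in Hu 3, 2.06 in Mongolian 2 and 0.181 in Mongolian 3, and at 0 elsewhere.

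DUSP26 stood at 0, 0 and 3.33 FPKM in Hu ovaries against 3.52, 4.68 and 0.744 in Mongolian ovaries, a log2 difference of -1.12 ± 0.79 (SE) that was -1.83 without Hu 3. DUSP11, which acts on RNA rather than on kinases, stood at 0, 4.13 and 4.39 in Hu ovaries against 1.80, 1.19 and 0 in Mongolian ovaries, a log2 difference of 0.72 ± 0.80 (SE) that lay between 0.29 (without Mongolian 3) and 1.52 (without Hu 1). The limma adjusted p was 0.998 for both, and both overlapped between breeds. DUSP10, DUSP12, DUSP14, DUSP16, DUSP19 and DUSP23 stayed at 6.40 FPKM or lower in every library.

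Of the IER genes, IER3, which is tied to cell survival, stood at 18.8, 0 and 15.7 FPKM in Hu ovaries against 2.70, 8.21 and 12.1 in Mongolian ovaries. IER5L stood at 10.4, 0 and 4.25 in Hu ovaries against 10.8, 6.21 and 2.88 in Mongolian ovaries. Both genes were at 0 in Hu 2 and in no other library, and without Hu 2 the log2 difference of IER3 went from -0.15 to 1.25 and that of IER5L from -0.82 to 0.16. With all libraries the limma adjusted p of IER3 was 0.998.

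GADD45A, which binds upstream MAP kinases after DNA damage and other stress and slows the cell cycle, stood at 36.1, 48.4 and 61.1 FPKM in Hu ovaries against 10.8, 29.1 and 28.5 in Mongolian ovaries. Every Hu library lay above every Mongolian library. Breed means were 48.5 ± 12.5 for Hu against 22.8 ± 10.4 for Mongolian (SD, n = 3 each), and the log2 difference was 1.15 ± 0.53 (SE). The unadjusted limma p was 0.0457 and the adjusted p 0.998. Without Mongolian 1 the difference was 0.70 and the unadjusted limma p 0.285, and without Hu 2 or Hu 3 the unadjusted p was 0.0922 and 0.0925. Its relatives did not share the pattern: GADD45B stood at 4.16, 3.65 and 3.63 in Hu ovaries against 2.34, 3.64 and 9.41 in Mongolian ovaries, and GADD45G at 0, 0.211 and 15.5 against 3.69, 1.99 and 2.13. No test between the 3 genes was made.

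BTG proteins restrain proliferation and bring deadenylases to messages. BTG1, a gene of quiescent cells, stood at 10.4, 38.4 and 49.9 FPKM in Hu ovaries against 14.1, 26.3 and 29.2 in Mongolian ovaries. BTG2, a target of p53, was listed at 0, 0 and 23.6 in Hu ovaries against 12.7, 6.19 and 0.771 in Mongolian ovaries, and BTG3 at 0, 0 and 12.7 against 5.98, 10.4 and 2.15. For BTG2 and BTG3, Hu libraries thus held both the values of 0 and the highest value; the log2 difference of BTG3 was -1.40 ± 0.98 (SE) (limma adjusted p = 0.998). For BTG3 it was -0.77 without Hu 1 or without Hu 2 and -2.66 without Hu 3. ZFP36, tristetraprolin, which binds AU-rich messages such as those of FOS and cytokines and speeds their decay, stood at 4.30, 3.11 and 15.6 in Hu ovaries against 8.94, 3.78 and 4.004 in Mongolian ovaries. Its log2 difference was 0.20 ± 0.71 (SE) (limma adjusted p = 0.998) and -0.41 without Hu 3.

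The recurring order was Hu 3 highest. Hu 3 held the highest value of 21 of the 38 members tested, or 55.3%, where it held that of 45% of all genes tested. Quantile normalization brings the libraries towards a common distribution, though genes tied at 0 keep a shared value. After it, Hu 3 was highest for 9 members, or 23.7%, against 15.1% of all genes. Hu 1 and Mongolian 3 were highest for 7 members each. The 9 members highest in Hu 3 were JUN, FOS, ATF3, KLF3, KLF6, KLF12, BTG2, GADD45G and ZFP36. Hu 2 held the lowest value, ties included, of 20 members, or 52.6%, against 37.6% of all genes. Of the marker lists, smooth muscle and theca and luteal markers each had 4 of 6 genes highest in Hu 3. The theca and luteal sum was nevertheless highest in Mongolian 3. Myeloid markers had 3 of 8, stroma and endothelium 2 of 6 each, and epithelium 1 of 6. The granulosa, lymphocyte, oocyte and red blood cell lists had 0. The part of cell makeup in this order was not tested.

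**Figure D5:**
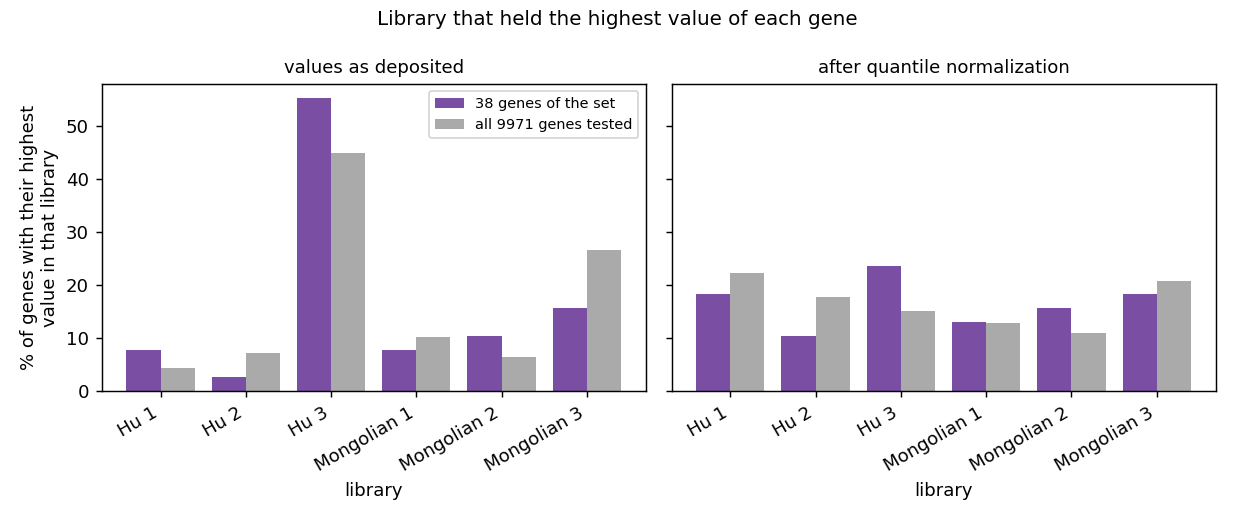
Percentage of genes whose highest value fell in each library, for the 38 genes of the set (purple) and all 9971 genes tested (grey), as deposited and after quantile normalization. Hu 3 leads the set in both panels (55.3% and 23.7%), and it also leads all genes as deposited (45%).

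Rank within a library needs no scaling between libraries. As a percentile of the 14480 rows, FOS stood at 62.5, 63.8 and 96.0 in Hu ovaries against 92.2, 85.0 and 91.8 in Mongolian ovaries. EGR1 ranged from 93.6 to 98.7, FOSL2 from 95.2 to 99.4 and ATF4 from 98.1 to 99.1 over the 6 libraries. These percentiles count rows at 0, and 44.9%, 55.0% and 92.1% of rows were above 0 in Hu 1, Hu 2 and Hu 3. The percentiles are therefore hard to compare between libraries. In Hu 1 and Hu 2, FOS lay in the lower part of the rows above 0, and FOSL2, JUN and EGR1 ranked higher.

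The spread between libraries was read on log2(FPKM + 1), a scale where level matters. Its median SD within Hu was 1.16 for tested members and 0.91 for all genes tested, and within Mongolian 0.66 and 0.53; the members' mean levels were also higher, with a median of 6.19 FPKM against 3.39. Among the 1797 genes with a mean of at least 10 FPKM, FOS had an SD over the 6 libraries of 1.71, above 93.0% of these genes. DUSP1 followed at 1.29 (above 86.9%), JUN at 1.14 (83.9%) and EGR1 at 1.06 (81.6%). ATF4, at 0.45, varied less than most (above 16.1%), and the median gene had 0.69. As deposited, the highest FOS value was 53.9 times the lowest, that of JUN 11.3 times, EGR1 5.93 times and ATF4 2.31 times. Each of these highest values lay in Hu 3 and each lowest in Hu 1 or Hu 2. The FPKM of all Ensembl genes summed to 68655, 87459 and 171396 in Hu and to 106570, 106396 and 101926 in Mongolian. The ratios therefore include a difference in scale between libraries, and its part in them was not tested.

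A fit with libraries weighted by their estimated quality gave other calls than the fit without weights. Hu 2 received a weight of 3.64, Hu 1 0.41 and Hu 3 0.25, so the Hu level rested mainly on Hu 2. At a limma adjusted p under 0.05, 9 of the 38 members were then called, 23.7% against 6.35% of all genes tested. Lower in Hu, as were 5.6% of all genes, were FOS, EGR1, ATF2, KLF6, DUSP26, IER5L, BTG2 and BTG3, and higher DUSP4. The difference was -1.94 for FOS (adjusted p = 0.0456) and -1.49 for EGR1 (adjusted p = 0.0418), and over the settings without weights the lowest adjusted p of a member was 0.158. Of these 8 lower genes, ATF2, IER5L, BTG2, BTG3 and DUSP26 were listed at 0 in Hu 2. Without Hu 3 and without weights, 9 members, 23.7% against 14.7% of all genes, were lower in Hu at an unadjusted p under 0.05, with FOS, EGR1, KLF6, DUSP1 and BTG2 among them, and 0 passed the adjusted threshold (0.0401% of all genes did).

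Neighbouring genes of the pathway were read from lists of other early genes, kinases and stress genes. Among other immediate early genes, 20 of 36 were tested, 10 with a positive and 10 with a negative difference, where 32.3% of all genes tested were positive. In limma 0 of them passed at an adjusted p under 0.05 or at an unadjusted one. ID1, an inhibitor of helix-loop-helix factors, was listed at 0, 0 and 6.94 FPKM in Hu ovaries against 11.7, 3.15 and 6.55 in Mongolian ovaries. RHOB, a small GTPase, stood at 0.0235, 0.0205 and 12.9 in Hu ovaries against 3.585, 7.01 and 2.19 in Mongolian ovaries, and TIPARP at 1.97, 0.988 and 19.1 against 3.12, 2.54 and 0.765. PPP1R15A, which restarts translation after stress, stood at 3.95, 0.352 and 1.35 against 7.36, 3.29 and 1.41. RHOB and TIPARP thus also had their highest value in Hu 3, as did 16 of the 25 listed genes of this list. Hu 3 held the highest value of 45% of all genes tested. The 25 include genes below the filter, such as NR4A3 and SIK1, which that share leaves out.

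Of the kinases and factors upstream, 23 of 33 were tested, 5 with a positive and 18 with a negative difference. Of all genes tested, 32.3% had a positive one. In limma 0 of the 23 passed the adjusted threshold. An unadjusted p under 0.05 was found for 2, both lower in Hu, against 2.82% of all genes tested in that direction. These were MAPK14, the p38 kinase, at 0, 1.19 and 13.5 FPKM in Hu ovaries against 11.5, 10.9 and 11.4 in Mongolian ovaries, and ELK1, the ERK target that binds with SRF, at 0, 0 and 3.11 against 4.10, 2.48 and 10.1. MAPK9, a JNK kinase, stood at 3.47, 4.84 and 7.80 in Hu ovaries against 5.67, 0 and 0 in Mongolian ovaries. The coactivator gene CREBBP stood at 4.94, 6.70 and 9.29 against 19.01, 8.51 and 19.2. EP300, named after its values were seen, stood at 3.70, 7.07 and 7.18 in Hu ovaries against 14.2, 8.87 and 13.5 in Mongolian ovaries. Every Hu value of EP300 lay below every Mongolian value, a pattern of 6.05% of all genes tested. Its log2 difference was -0.94 ± 0.59 (SE), with a limma adjusted p of 0.998. The lower libraries for MAPK14 and ELK1, Hu 1 and Hu 2, were also the lower ones for FOS, EGR1 and DUSP1. Of all rows, 30.7% were at 0 in Hu 1 and Hu 2 and above 0 in Hu 3. A link between these genes was not tested.

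Genes of the unfolded protein and integrated stress response, which act with ATF4 and ATF6, gave 8 positive and 8 negative differences among 16 of 24 tested. The share of positive differences among all genes tested was 32.3%. There were 0 calls in limma at either threshold. DNAJC3 stood at 0, 0 and 6.72 FPKM in Hu ovaries against 3.80, 3.48 and 2.90 in Mongolian ovaries, and DDIT4 at 1.16, 5.21 and 10.9 against 11.3, 2.07 and 35.5. XBP1, the factor activated by splicing in the endoplasmic reticulum, stood at 22.9, 24.96 and 49.4 in Hu ovaries against 21.3, 20.6 and 17.6 in Mongolian ovaries. CREBZF stood at 17.1, 9.04 and 11.5 against 22.2, 14.9 and 24.6. For 3 of the 16 genes tested every Hu value lay above every Mongolian value, a pattern of 1.88% of all genes tested: XBP1 and, named after their values were seen, the endoplasmic reticulum chaperone genes CALR and HSP90B1. CALR stood at 120.9, 99.6 and 161 against 79.6, 89.99 and 93.6, and HSP90B1 at 74.8, 48.3 and 47.002 against 39.4, 34.2 and 41.2. The limma adjusted p was 0.998 for each of the 3, with log2 differences of 0.60 for XBP1, 0.51 for CALR and 0.53 for HSP90B1. All other tested genes of the list overlapped between breeds. Among them were HSPA5, with a log2 difference of 0.22, PDIA4 with -0.040 and HERPUD1 with -0.47.

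Genes of the response to the ovulatory surge were thinly listed: 10 of 18 by symbol, of which 6 were tested. Of these, 4 had a positive and 2 a negative difference, where 32.3% of all genes tested were positive, with 0 calls in limma at either threshold. PTX3, a matrix protein of the expanding cumulus, stood at 0, 1.33 and 1.08 FPKM in Hu ovaries against 3.90, 1.25 and 9.29 in Mongolian ovaries. STAR, the cholesterol carrier, stood at 5.05, 7.28 and 18.9 against 1.58, 7.495 and 1.75, INHA at 99.1, 15.6 and 45.2 against 25.9, 15.8 and 40.4, and the progesterone receptor gene PGR at 0, 2.998 and 21.1 against 2.31, 3.36 and 0.788. STAR and PGR were highest in Hu 3 and INHA in Hu 1.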

How the data were processed

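The authors deposited FPKM values for genes in 6 libraries; per the labels' protocols, RNA was taken with a column kit (RNeasy) and libraries were made with a SMARTer kit from 1 μg of total RNA. Aligner, counter and genome build: not given in the sources used here. Groups came from sample titles, and columns from the codes in the descriptions. The lncRNA table was not used here. Low values showed no steps of whole reads (at most 0.566% of genes under 2 FPKM shared a ratio within 0.2%), so no count model was used. Genes held at 0.5 FPKM or above by 3 or more libraries were tested with limma 3.58.1 in R 4.3.3 on log2(FPKM + 1), which understates changes of low genes (lmFit, eBayes with trend, breed alone, two-sided, Benjamini-Hochberg over all genes, threshold 0.05); the script was tested on simulated data. All 44 symbols had a RefSeq gene (ARS-UI_Ramb_v3.0); no sequence or coordinate was used. Log2 differences are given for the most abundant tested member of each role and the 6 members with the smallest p in each direction. They are also given for FOS and IER5L, chosen after their values were seen, as were the members called only with array weights. DUSP4, at 0 in every Mongolian library, has no difference printed. Up to 4 genes per further list are named by p, with EP300, CALR and HSP90B1 added after their values were seen. The members and lists were chosen with earlier results of these data known.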

Additional observations from a re-analysis of the deposited data

How the results depend on the processing

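With 3 libraries per breed and unknown depth, the unadjusted 95% interval of a member's log2 difference reached 1.55 to either side in the median. The other pseudocounts and filters, the other scalings and the replicate block called 0 genes. Array weights called 633 genes and 9 members, leaving out 1 library called 0 to 4 genes and 0 members, and leaving out Hu 1 and Hu 3 together, chosen after seeing the data, called 6 genes and 0 members. Members with a positive difference numbered 5 (without Hu 3) to 18 (without Hu 2) with 1 library left out, 8 without Hu 1 and Hu 3, 6 of 20 at a filter of 5 FPKM and 7 of 19 among genes above 0 in all libraries; the last 2 settings tested fewer genes. The distance of the members' median from that of all genes was -0.014 as deposited. It lay between -0.26 (without Hu 1 and Hu 3) and 0.15 (without Hu 2) over the settings, and was -0.24 with array weights. It moved by less than the spread between libraries, 0.74, in every setting. That limit is so wide that staying within it says little. Same-numbered libraries of the breeds did not deviate together (correlations from -0.18 to -0.01), and the replicate block left 0 members called and 13 positive, its differences being equal by construction.

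Of the 38 members, 6 turned sign after quantile normalization, 5 with a common sum, 6 with array weights, 1 and 2 at pseudocounts of 0.1 and 0.01, 7 without Hu 1 and Hu 3, and 1 to 8 with 1 library left out. Among the genes chosen for naming, signs turned as follows, and the cause was not tested; as deposited the differences were -0.91 for ATF2, 0.68 for INHA, 0.59 for PGR and 0.73 for TIPARP. A common sum gave 0.051 for ATF4, 0.041 for MYC and 0.13 for IER3, and quantile normalization 0.083 for IER3. Array weights gave -0.57 for ZFP36, -0.23 for INHA and -0.51 for TIPARP. Leaving out Hu 1 and Hu 3 gave -0.59 for ZFP36, -0.71 for FOSB, -0.20 for ATF3, -0.68 for INHA and -0.57 for TIPARP. PGR went to -0.059 and -1.10 at pseudocounts of 0.1 and 0.01. With 1 library left out, values ran from -0.80 to 0.23 for MYC, -1.10 to 0.069 for KLF9, -0.91 to 1.25 for IER3, -0.41 to 0.60 for ZFP36, -0.28 to 1.42 for JUN, -0.42 to 1.45 for ATF3, -1.74 to 0.19 for ATF2, -1.59 to 0.16 for IER5L, -0.56 to 1.67 for PGR and -0.28 to 1.39 for TIPARP.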
